A study of Homo sapiens with 3 samples.

Results

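The stretch described here is nucleotides 436 to 1311 of human 28S ribosomal RNA, the region that carries expansion segment 7 of the large ribosomal subunit. Its members are every adenosine and cytidine with a number in that range, chosen by position alone, and they are 435 of the 2492 A and C of the rRNA (60 A and 375 C in 876 nt). The rRNA came from HEK293, a human embryonic kidney line, and was probed in 3 libraries, 1 for each treatment: the solvent DMSO, 10 µM cycloheximide in an equal volume, or RiboBright, each for 30 min. The treatment protocol gives 10 µM of a probe that it does not name, taken here to be RiboBright. HEK293 is the name in the labels' cell line field. Their growth protocol names HEK293T/17, a subline with SV40 large T antigen, and rRNA holds no cell type marker against which to check either name. How much dimethyl sulfate was used, and for how long, is not given in the sources used here. No library without it is analysed here. With 1 library per treatment no difference had a replicate check, so comparisons describe these libraries and carry no test.

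Expansion segments are insertions that set eukaryotic rRNA apart from the bacterial core, and segment 7 is among the longest in the human large subunit. It lies on the outside of the subunit, it is very rich in G and C, and parts of it extend as long flexible arms into the solvent. Runs of G in human segment 7 are known to be able to form G-quadruplexes, stacked planes of 4 guanines, as purified RNA. Dimethyl sulfate adds a methyl group to the pairing edge of an exposed A or C. Reverse transcription past such a base leaves a mutation in the cDNA, so the more open a nucleotide, the higher its mutation signal. Cycloheximide stops elongation from the E site of the large subunit, and the labels give no structure for RiboBright.

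The signal has no unit. The authors appear to have scaled it within each library and base, with 1 near the level of the most open nucleotides. The floor is a signal of 0.240, the 75th percentile of all A and C of 28S in DMSO, and a position with no entry in a library is called unlisted. Position 1 is the 5′ end of the deposited table, which has 5070 nt. RNA28SN5 has that length in the RefSeq gene table of GRCh38.p14, where it runs from 113348 to 118417 on a sequence without an assigned chromosome. Chromosome 21 has 3 copies, RNA28SN1 of 5066 nt, RNA28SN2 of 5054 nt and RNA28SN3 of 5055 nt, and chromosome 22 has RNA28SN4, of 5077 nt. The values name no copy and are taken here to describe the pool of copies, all of them noncoding rRNA genes. The files carry no annotation of expansion segments, and the sequence was not matched to a genome.

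Sequences that carry the results are written 5′ to 3′ in the DNA letters of the deposited table. In a block of CGG repeats and the A-rich gap after it (844 to 915), capitals mark each A or C at or above the floor in DMSO, because the most reactive cytidine of the whole rRNA lies there.

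CGG repeat block: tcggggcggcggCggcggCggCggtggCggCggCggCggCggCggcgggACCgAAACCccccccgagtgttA

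The C-rich peak (523 to 552), the surroundings of A1000 (985 to 1015) and of C1039 (1024 to 1054) hold other strong signals, with capitals of the same meaning.

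C-rich peak: ccgttCCtcCCgAcCcCtCCAcCCgccctc

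around A1000: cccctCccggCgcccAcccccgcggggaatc

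around C1039: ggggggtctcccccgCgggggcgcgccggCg

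Both regions that hold the G-run motif, 4 runs of at least 3 G with 1 to 7 nt between them, are shown because nearly every A and C in them was unlisted. Capitals mark the G runs of region 1 (587 to 648) and region 2 (829 to 849).

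G-run region 1: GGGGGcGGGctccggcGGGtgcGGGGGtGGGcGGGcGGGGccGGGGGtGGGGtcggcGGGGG

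G-run region 2: GGGaGGGcgcgcGGGtcGGGG

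The 2 longest runs of positions listed in RiboBright (1175 to 1231 and 1249 to 1310) are where all treatments can be set side by side. Capitals mark each A or C at or above the floor in RiboBright.

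RiboBright segment 2: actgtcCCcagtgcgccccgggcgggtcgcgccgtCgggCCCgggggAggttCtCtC

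RiboBright segment 1: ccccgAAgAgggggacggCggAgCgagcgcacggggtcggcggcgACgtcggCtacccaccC

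Last, the 5′ end of the stretch (436 to 485) held more positions that passed the rule of change between cycloheximide and DMSO than any other window of 50 nt, and capitals mark those positions.

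start of the stretch: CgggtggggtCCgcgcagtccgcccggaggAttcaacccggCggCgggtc

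The stretch was 83.1% G and C, against 66.6% in the rest of 28S, and only 6.85% of its nucleotides were A. Which positions had a value differed sharply between libraries. Of the 435 A and C, 335 were listed in DMSO (77.0%), 376 in cycloheximide (86.4%) and 88 in RiboBright (20.2%), which leaves 100, 59 and 347 unlisted. In the rest of 28S the listed shares were 91.6%, 91.8% and 85.1% of 2057 positions. Adenosines were listed more often than cytidines: 51 of 60 A and 284 of 375 C in DMSO, 57 and 319 in cycloheximide, 21 and 67 in RiboBright. Both other libraries listed each of the 88 positions of RiboBright. A further 44 were listed in cycloheximide and not in DMSO, 3 in DMSO and not in cycloheximide, and 56 in no library.

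Local base composition was set beside these gaps. The median G and C share within 51 nt was 82.4% around members and 64.7% around the A and C of the rest. Where the rest of 28S reached at least 82.4%, at 509 positions, the listed shares were 73.1%, 72.3% and 51.9%, against 77.0%, 86.4% and 20.2% in the stretch. RiboBright was thus far below this part of the rest. The part is called like in composition below, although members also include positions under 82.4%. From 60% to 70% local G and C, RiboBright listed 25.0% of 12 positions in the stretch and 97.2% in the rest. From 70% to 80% it listed 32.5% and 89.2%, where DMSO listed 94.7% and 93.2%. The low RiboBright share was thus not confined to the positions richest in G and C. From 80% to 90% local G and C, the listed shares were 70.2%, 84.4% and 17.5% in the stretch and 77.8%, 78.9% and 55.3% in the rest. From 90% up they were 64.7%, 61.8% and 0% in the stretch and 67.5%, 63.4% and 51.8% in the rest. Within the stretch, the unlisted positions of DMSO had a median local G and C share of 84.3% and the listed ones 80.4%. The part that composition plays in the missing values was not tested.

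Unlisted positions came in unbroken runs. DMSO lacked 80 A and C in a row from C552 to C724 and 20 from C807 to C845, and these were all of its gaps. In cycloheximide the gaps were 29 from C560 to C628, 23 from C807 to C856 and 7 from C696 to A711. RiboBright lacked 240 from C436 to A929, 97 from C987 to C1172, 8 from C1236 to C1248, and C953 with C954. What RiboBright did list was 13 A and C from C931 to C948, 18 from A956 to C986, 25 from A1175 to C1231 and 32 from C1249 to C1310, all in the 3′ part. No RiboBright value exists for the CGG repeats, the C-rich peak, A1000 or C1039.

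**Figure D1:**
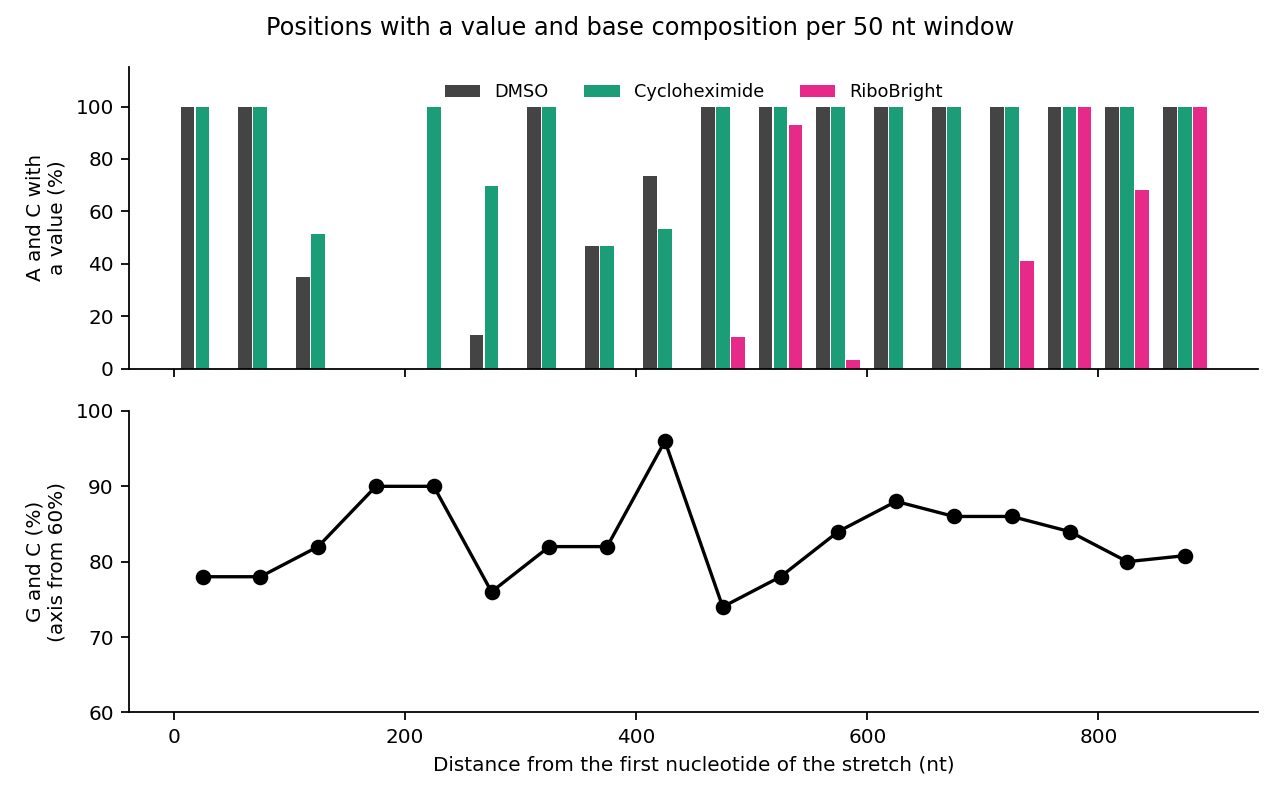
Upper panel: percent of A and C with a value in each window of 50 nt (the last has 26 nt) for the 3 libraries. Lower panel: percent of G and C in the same windows, on an axis that starts at 60%. The window from 586 to 635 has no value in any library, the next is listed only in cycloheximide, and RiboBright bars appear only toward the 3′ end.

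The G-run regions fell almost wholly inside these gaps. Region 1 has 12 A and C, of which none was listed in DMSO or RiboBright and 2 in cycloheximide, C640 at 1.104 and C643 at 0.073. Region 2 has 5 A and C, and no library listed any. The motif, searched on the RNA strand alone, was present in 194 of the 777 windows of 100 nt inside the stretch (25.0%) and in 165 of 3996 in the rest of 28S (4.13%). The rest holds 2 regions: at 2896 to 2918 all 4 A and C were listed in all 3 libraries, and at 3110 to 3149 none of 10 was. Regions 1 and 2 cover 83 nt, which grew to 201 nt with spacers of up to 12 nt and to 301 nt with runs of at least 2 G.

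Cycloheximide gave the only view of the interior next to G-run region 1. Its 44 positions absent from DMSO, 6 A and 38 C, had a median of 0.0765, and 9 of them (20.5%) reached the floor. The highest was C640, at 1.104, inside the motif region, followed by A692 at 0.598, C559 at 0.56 and C558 at 0.475. Another 11 were listed at exactly 0.

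Exact zeros were common in the stretch. They made up 39 of the 335 listed values in DMSO (11.6%), 42 of 376 in cycloheximide (11.2%) and 21 of 88 in RiboBright (23.9%), against 2.65%, 1.85% and 5.31% in the rest of 28S. Rest positions of at least the same local G and C share had 11.6%, 7.34% and 14.4%. All but 1 of the zeros of DMSO were on C. Read depth is not part of the table, so a zero cannot be given an upper limit. The smallest signal above 0 in a window of 50 nt is a measure of how finely low signals were resolved. Its median was 0.0300 in DMSO (14 windows), 0.0280 in cycloheximide (15 windows) and 0.0610 in RiboBright (only 4 windows). In the rest it was 0.0190 (76 windows), 0.0230 (77 windows) and 0.0175 (72 windows).

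Listed members had higher medians than the rest of the rRNA. The median signal of A was 0.222 in DMSO (n = 51), 0.227 in cycloheximide (n = 57) and 0.290 in RiboBright (n = 21), and those of the rest had 0.131, 0.135 and 0.135. Cytidines had 0.107 (n = 284), 0.102 (n = 319) and 0.153 (n = 67), against 0.0705, 0.0780 and 0.0780. Rest positions of like local composition had higher adenosines, with 0.437 in DMSO over 29 A, and lower cytidines, with 0.0590 over 343 C. The floor was reached by 110 of 335 members in DMSO (32.8%), by 23.6% of the rest and by 29.8% of its part of like local composition. Most of that excess over the rest was thus shared with the part of like composition. A signal of at least 1 was reached by 4.78% of members, 5.41% of the rest and 6.72% of that part. These medians describe positions with a value: with unlisted positions set to 0, the median of C in DMSO would be 0.0580. Over the 21 A listed in all libraries the medians were 0.149 in DMSO, 0.162 in cycloheximide and 0.290 in RiboBright.

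**Figure D2:**
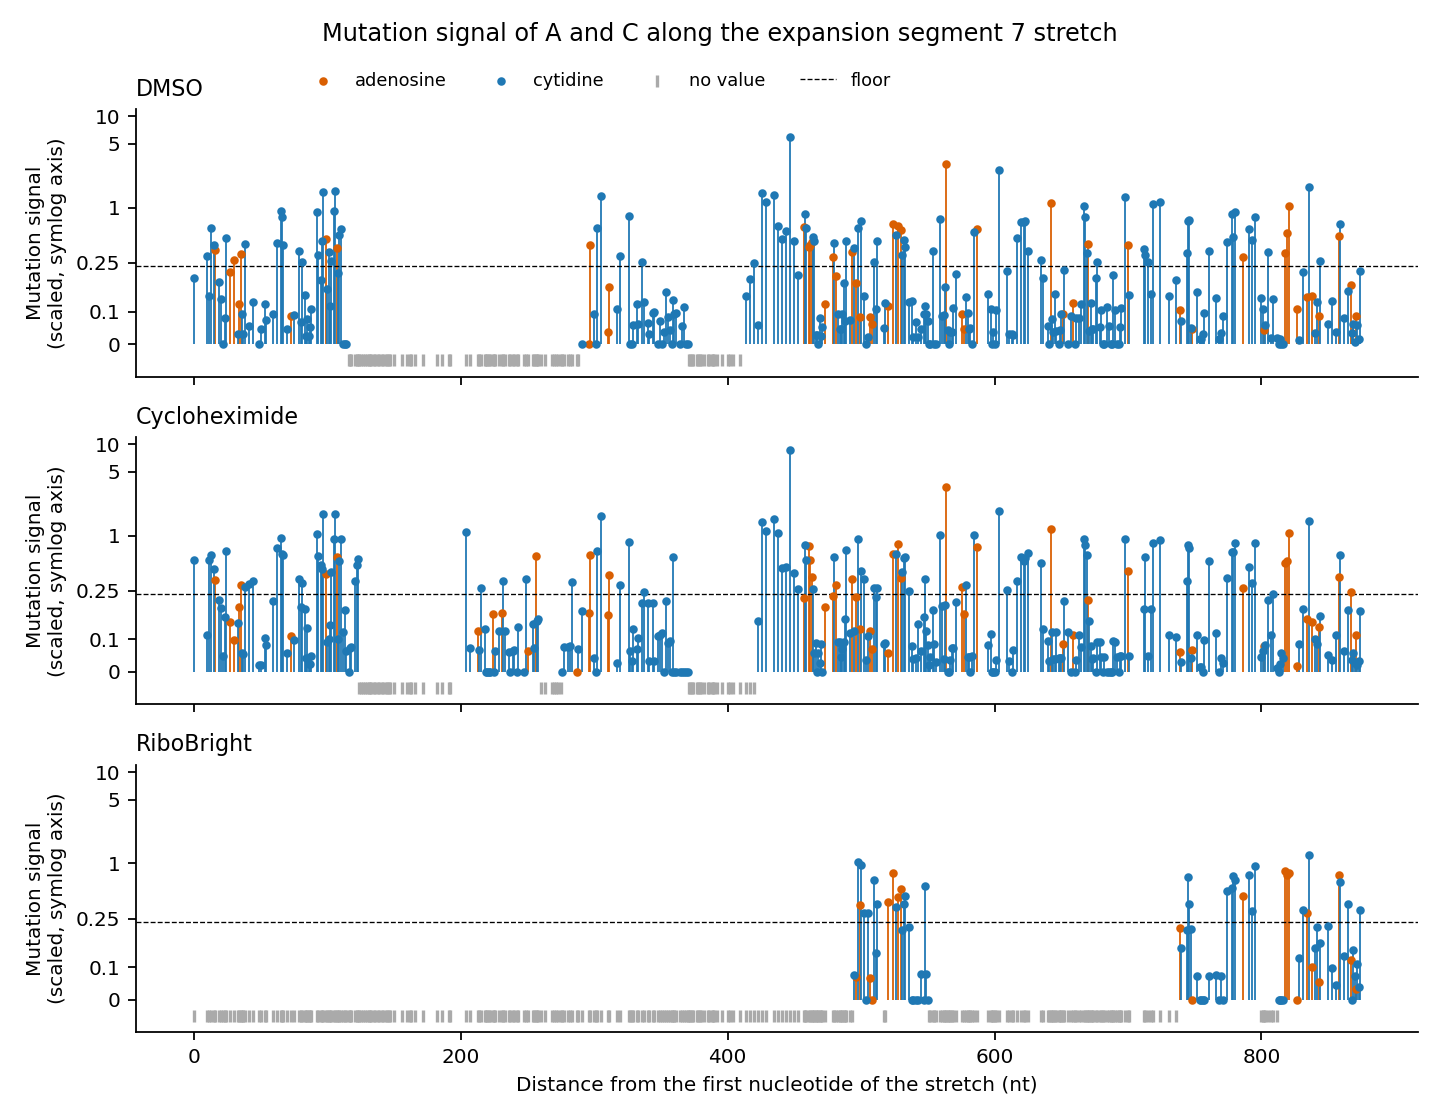
Mutation signal of each A (orange) and C (blue) against the distance in nt from the first nucleotide of the stretch, 1 panel per library, on an axis that is linear near 0 and logarithmic above 0.25. Grey ticks mark positions with no value and the dashed line is the floor of 0.240. The tallest point in DMSO and cycloheximide is C883, at 5.945 and 8.541, followed by A1000, at 3.036 and 3.375.

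The 10 highest DMSO signals of the stretch were 9 cytidines and A1000. C883 led with 5.945 in DMSO and 8.541 in cycloheximide. It ranked first of the 1450 cytidines listed in DMSO across 28S, at 77.2 times their median, and the highest cytidine of the rest had 5.77. How much of the signal of C883 arose without dimethyl sulfate was not tested. A1000, flanked by C on both sides, had 3.036 and 3.375 and ranked 9 of 770 adenosines. C1039, between a run of C and a run of G, had 2.574 and 1.863. C1272 had 1.699 and 1.439, with 1.237 in RiboBright, and was the sole member of the 10 with a RiboBright value. C542 had 1.507 and 1.717, and C533 had 1.481 and 1.743, both in the C-rich peak. C862 had 1.464 and 1.421 and C871 had 1.367 and 1.536, both in the CGG repeats. C741 had 1.331 and 1.652, and C1134 had 1.308 and 0.928. Between cycloheximide and DMSO, the log2 ratios of these 10 ran from -0.57 to 0.44, so none differed by 2-fold.

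The CGG repeats hold 13 cytidines in 2 runs, 6 units from 850 to 867 and 7 from 871 to 891. In DMSO all 13 were listed, with a median of 0.457, which is 5.94 times the median cytidine of 28S, and 9 reached the floor. In cycloheximide 10 were listed, with a median of 0.760. That library lacks C850, C853 and C856, which were low in DMSO, so these medians cover unlike positions and do not measure a rise. From the 5′ end, the DMSO signals were 0.149 at C850, 0.201 at C853, 0.249 at C856 and 0.058 at C859, then 1.464 at C862, 1.157 at C865 and 1.367 at C871. After these came 0.625 at C874, 0.457 at C877 and 0.555 at C880. C883 stood at 5.945, and C886 and C889 were at 0.431 and 0.212. The same profile appeared in cycloheximide from C859 on, with 1.421 at C862, 0.456 at C880, 8.541 at C883 and 0.386 at C886.

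C883 shares the 3 letters on each side with 11 other cytidines of the stretch, all listed in DMSO, whose signals ran from 0.056 to 1.464 with a median of 0.411. Over the whole of 28S, 21 others with that context had a value in DMSO, and the highest was 1.831. Another run of 7 CGG units, from 2154 to 2174, had a median of 1.07 in DMSO and 1.16 in cycloheximide, with 1.11 in RiboBright, and its highest cytidine reached 4.59 in DMSO. A run of 5 units from 3490 to 3504 was lower, with a DMSO median of 0.241 over 3 listed cytidines and a highest signal of 0.254.

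**Figure D3:**
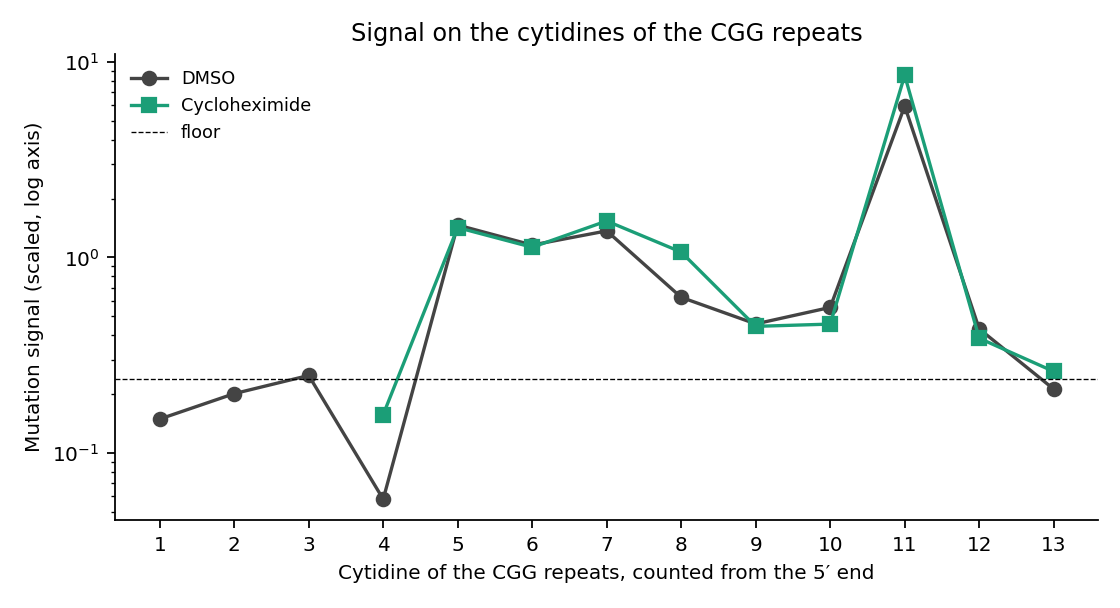
Mutation signal, on a log axis, of the 13 cytidines of the CGG repeats in order from the 5′ end, in DMSO (circles) and cycloheximide (squares). The dashed line is the floor of 0.240. The 11th cytidine, C883, stands above its neighbours in both libraries, and the first 3 have no cycloheximide value.

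Just 3′ of the repeats, the A and C of 893 to 901 formed an open gap. All 8 reached the floor in DMSO, from 0.37 at A897 to 0.851 at C894, and all were predicted unpaired. Cycloheximide kept 6 of them at or above the floor, with 0.791 at C894 and 0.764 at A897. The 2 others were A893, at 0.62 in DMSO and 0.227 in cycloheximide, and C901, at 0.433 and 0.057. The run of C that follows was at most 0.079 in DMSO, at C905.

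Cytidines differed by their neighbours. Those with C on both sides had a DMSO median of 0.0460 (71 listed), and 25.4% of them were at exactly 0. With G on both sides the median was 0.224 (48 listed), and 2.08% were at 0. The rest of 28S had the same order, at 0.0300 and 0.173. In RiboBright these classes of the stretch hardly differed, at 0.0800 (15 listed) and 0.0855 (10 listed). Predicted unpaired were 14.8% of the class with C on both sides and 29.7% of that with G on both sides. The latter also holds the CGG repeats, and neighbours and pairing were not separated. Cytidines inside the 24 runs of at least 4 C were lowest, with a median of 0.0415 in DMSO and 0.0440 in cycloheximide. In the C-rich peak the strongest cytidines bordered another base on at least 1 side: C528 was at 0.894, C533 at 1.481, C541 at 0.924 and C542 at 1.507 in DMSO, and cycloheximide had 1.033, 1.743, 0.912 and 1.717. The run of 4 C inside that peak was lower, with 0.17 at C536, 0.328 at C537, 0.118 at C538 and 0.261 at C539 in DMSO. Not every cytidine of the peak followed its neighbours. C529, C531 and C544 also border another base and had 0.301, 0.198 and 0.218 in DMSO. C532 and C545, with C on both sides, had 0.431 and 0.499.

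Windows of 50 nt showed where the open and closed positions lie. The highest DMSO median was 0.555, from 836 to 885, over 11 listed positions, and the lowest was 0.0490, from 786 to 835, over 14. At the ends of the stretch the nearest positions had similar DMSO signals. A435, the last A or C before the stretch, had 0.203 and C436 had 0.203. C1310 had 0.226 and A1312, the first beyond the stretch, had 0.186. Each end sets an A against a C, so these values cannot show whether the signal steps there. Under cycloheximide these 4 positions had 0.267, 0.535, 0.187 and 0.154, and in RiboBright C1310 had 0.31 and A1312 had 0.147.

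The 876 nt were folded with ViennaRNA, which uses the sequence alone and knows neither proteins nor the rest of the ribosome. An A or C was called predicted unpaired where its unpaired probability was at least 0.5, which took 118 of the 435. Predicted unpaired cytidines had a median signal of 0.333 in DMSO (n = 59) and predicted paired ones 0.0910 (n = 225), a ratio of 3.66. In cycloheximide the medians were 0.343 (n = 61) and 0.0860 (n = 258), and in RiboBright 0.325 (n = 12) and 0.110 (n = 55). For adenosines, DMSO had 0.325 and 0.125, cycloheximide 0.291 and 0.141, and RiboBright 0.380 and 0.162. The adenosine difference in RiboBright, 0.218 over 21 positions, turned to -0.0110 when pairs were limited to 200 nt. Among all pairs of 1 unpaired and 1 paired cytidine, the unpaired one was higher in a share of 0.754 in DMSO and 0.767 in cycloheximide, and of 0.718 in RiboBright. Members share a library and neighbours share a helix, so these are descriptions.

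**Figure D4:**
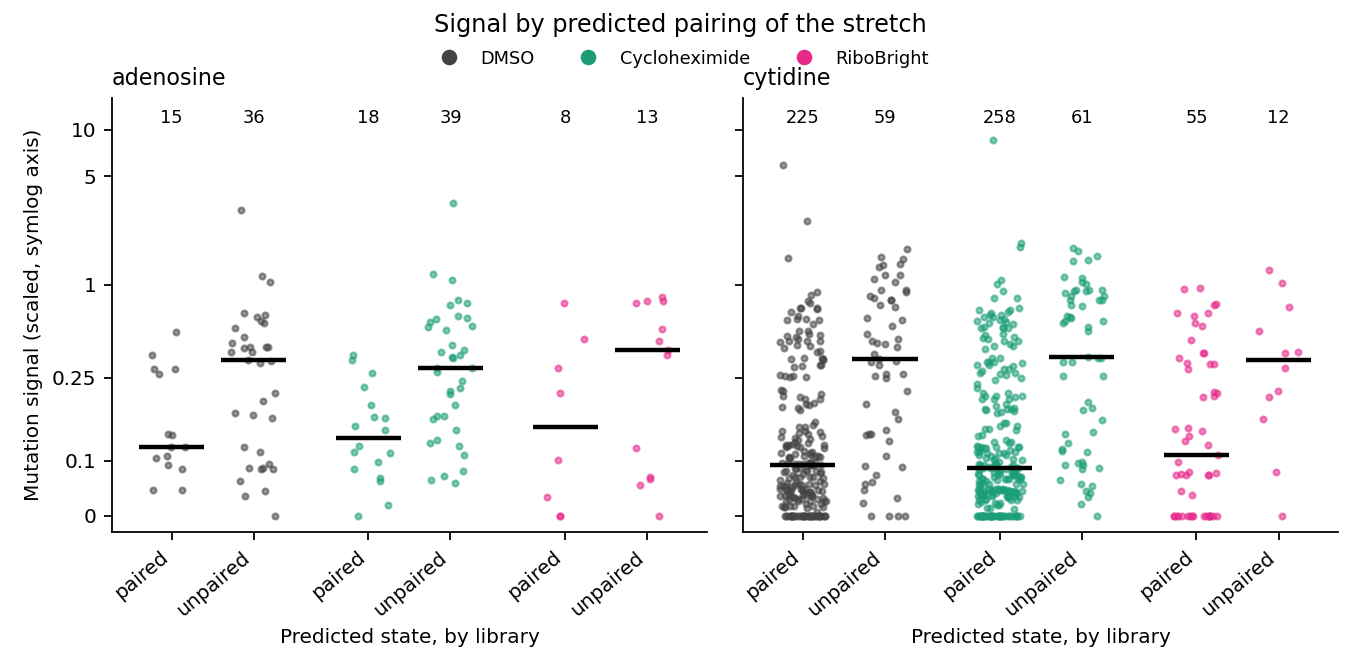
Mutation signal of each listed A (left) and C (right) by predicted state and library, on an axis that is linear near 0 and logarithmic above 0.25. Bars are medians and the numbers at the top count positions. The medians of C are 0.333 against 0.0910 in DMSO, and in that library both classes of C span from 0 to above 1.

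Short hairpins were searched after the values had been seen, as at least 5 Watson-Crick pairs closing a loop of 3 to 8 nt, and 12 were found. Pooled over them, loop positions had a DMSO median of 0.150 (n = 14) and stem positions 0.0835 (n = 40), and in cycloheximide 0.269 (n = 20) and 0.0570 (n = 53). Hairpins 11 and 12, which had the highest loop medians in DMSO, are given with the loop in capitals, at 1128 to 1141 and 1245 to 1265.

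hairpin 11: ccccgGCGAcgggg

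hairpin 12: cgtcccccGAAGAgggggacg

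In hairpin 12, listed in part in all 3 libraries, A1257 had, in the order DMSO, cycloheximide, RiboBright, signals of 1.045, 1.072 and 0.782. A1255 had 0.525, 0.53 and 0.756, and A1254 had 0.322, 0.506 and 0.838. The 8 stem positions had a DMSO median of 0.0150, and C1249 was at 0 in every library. In the loop of hairpin 11, C1134 had 1.308 in DMSO and 0.928 in cycloheximide, and A1136 had 0.396 and 0.408. Its 5 stem positions had a median of 0.0530. Of the 7 hairpins with DMSO values in loop and stem, 4 had the higher median in the loop and 3 did not. In hairpin 2 (487 to 502) the stem median was 0.411 and the single loop cytidine, C495, was at 0.093. Hairpin 1 (471 to 484) had 0.129 in the stem and 0.0560 in the loop, and hairpin 9 (1005 to 1022) had 0.0950 and 0.0930. The fold of the whole stretch gave these 3 other pairing in part. Loop positions C477, C495, A1013 and C1015 had unpaired probabilities of 0.00, 0.14, 0.14 and 0.03, and A1012 had 0.60. Stem positions A471, C498, C501, C502 and C1021 had 1.00, 0.77, 0.86, 0.86 and 0.98. The other A and C of these stems were below 0.5. In cycloheximide the loop was higher in 7 of 9, the others being hairpins 2 and 3. Hairpins with the higher loop also differed from the fold in part. In hairpin 3 (504 to 520), higher in DMSO, loop positions A509, C511 and C515 had 0.92, 0.51 and 0.12. In hairpin 5 (643 to 659), higher in cycloheximide, C650 and C651 had 0.18 and 0.17. In the loops of hairpins 10, 11 and 12 all A and C had 0.98 or more. Whether the fold accounts for the differences between hairpins was not tested.

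Of the 16 members with a DMSO signal of at least 1, 13 were predicted unpaired, and the exceptions were C533, C883 and C1039. Further 3′, the A and C from C1210 to C1231 formed the longest run at or above the floor in all 3 libraries, yet only C1210 of these 8 was predicted unpaired. In the same order of libraries, C1214 had 0.859, 0.668 and 0.54. C1216 had 0.897, 0.825 and 0.657. C1227 had 0.588, 0.455 and 0.746, and C1231 had 0.79, 0.821 and 0.942. The run had medians of 0.535, 0.555 and 0.599, and each of the 3 C from C1214 to C1216 had an unpaired probability of 0.02. The cytidines just 5′ of it, from C1202 to C1207, did not exceed 0.141 in any library.

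Over the 88 positions listed in all 3 libraries, 26 (29.5%) were at or above the floor in each, 46 (52.3%) were below it in each and 16 (18.2%) were mixed. In the rest of 28S 6.51% of 1750 were mixed. Of the 26, 12 were predicted unpaired and 14 paired. They include C934, whose signals in the order DMSO, cycloheximide and RiboBright were 0.607, 0.922 and 1.028, A960 at 0.66, 0.626 and 0.78, C1181 at 0.718, 0.795 and 0.715, and C1295 at 0.664, 0.616 and 0.63.

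To compare libraries, the median of values above 0 over 28S was brought to that of DMSO, by a factor of 0.945 in cycloheximide and 0.912 in RiboBright (shifts of -0.08 and -0.13 on the log2 scale). Ratios are log2 of the scaled signal plus a pseudocount of 0.0104, which understates changes at low signal. A position was called where the ratio reached 2-fold and the higher scaled signal reached the floor. Signals below are as deposited, and log2 ratios follow scaling. Of the 588 positions of 28S past the floor in cycloheximide and DMSO, 4.59% were called, 2.72% higher in cycloheximide and 1.87% lower.

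In the stretch, cycloheximide and DMSO could be compared at 332 positions, and the median log2 ratio was 0.00. The floor was passed by 123, of which 17 (13.8%) were called, 9 higher and 8 lower, above the 4.59% of all positions. The rest of 28S had 10 calls in 465 (2.15%), and its part of like local composition had 6 in 113 (5.31%). The spread of the log2 ratio past the floor, a standard deviation estimated from the median absolute deviation, was 0.592 in the stretch, 0.197 in the rest and 0.248 in the rest of like composition. Accordingly, 66.7% of the 123 lay within 1.5-fold, against 94.8% in the rest. The larger spread in the stretch was in both directions, and its cause was not tested. The Pearson correlation of log2 signals over the 332 positions, which share their libraries, was 0.787, against 0.939 over 1868 in the rest.

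Calls in the stretch did not gather at its most reactive positions: 0 of 43 were called with a floor raised to the 90th percentile. The share called over the whole rRNA at that floor is not given. Whether this absence is particular to the stretch was not tested. The split between directions rests on the scaling, since scaling by the median of the stretch itself gave 4 higher and 14 lower, against 9 and 8. Of the 17, 11 had an A or C that was unlisted or at 0 in either library within 10 nt, among 71 such positions past the floor. The other 6 were farther away, among 52. Where each A and C within 10 nt was listed in both libraries, 17 of 116 were called. None of the 17 thus lay that near an unlisted position, and the 11 were near zeros only.

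Of the 9 positions higher under cycloheximide, 5 lay in the first 100 nt. C795 had 0.583 in cycloheximide and 0.136 in DMSO (log2 ratio 1.94), and C447 had 0.535 and 0.148 (1.70). C436, the first of the stretch, had 0.535 and 0.203 (1.27), and C531 had 0.477 and 0.198 (1.15). C477 had 0.298 and 0.056 (2.14), and C480 had 0.315 and 0.129 (1.14). C984 had 0.335 and 0.116 (1.37), A1012 had 0.271 and 0.093 (1.37) and C938 had 0.336 and 0.147 (1.06). Next to C436 and C447 the first window of 50 nt had a median log2 ratio of 0.43 over 22 positions, the highest of the stretch. A1012 is the first of 3 loop positions of hairpin 9 (1005 to 1022). The others, A1013 and C1015, were chosen after their values were seen and had the same direction. A1013 had 0.179 in cycloheximide and 0.046 in DMSO, and C1015 had 0.285 and 0.145. The fold of the stretch gave unpaired probabilities of 0.60 at A1012, 0.14 at A1013 and 0.03 at C1015, so only A1012 was predicted unpaired.

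Among the 8 lower positions, A893 had 0.227 in cycloheximide and 0.62 in DMSO (log2 ratio -1.49), and C901 had 0.057 and 0.433 (-2.79), the opposite ends of the open gap after the CGG repeats. Between them A897 had 0.764 and 0.37 and was not called. C931 had 0.125 and 0.367 (-1.55), and C537 had 0.101 and 0.328 (-1.68). C1151 had 0.048 and 0.253 (-2.24), C446 had 0.114 and 0.295 (-1.37), A466 had 0.097 and 0.265 (-1.43) and C1113 had 0.091 and 0.256 (-1.47). C446 and C447 are adjacent cytidines called in opposite directions. The window from 1136 to 1185, which holds C1151, had the lowest median log2 ratio, -0.42 over 17 positions. At the threshold, C938 was just inside at 1.06 and C900 just outside at -0.95.

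**Figure D5:**
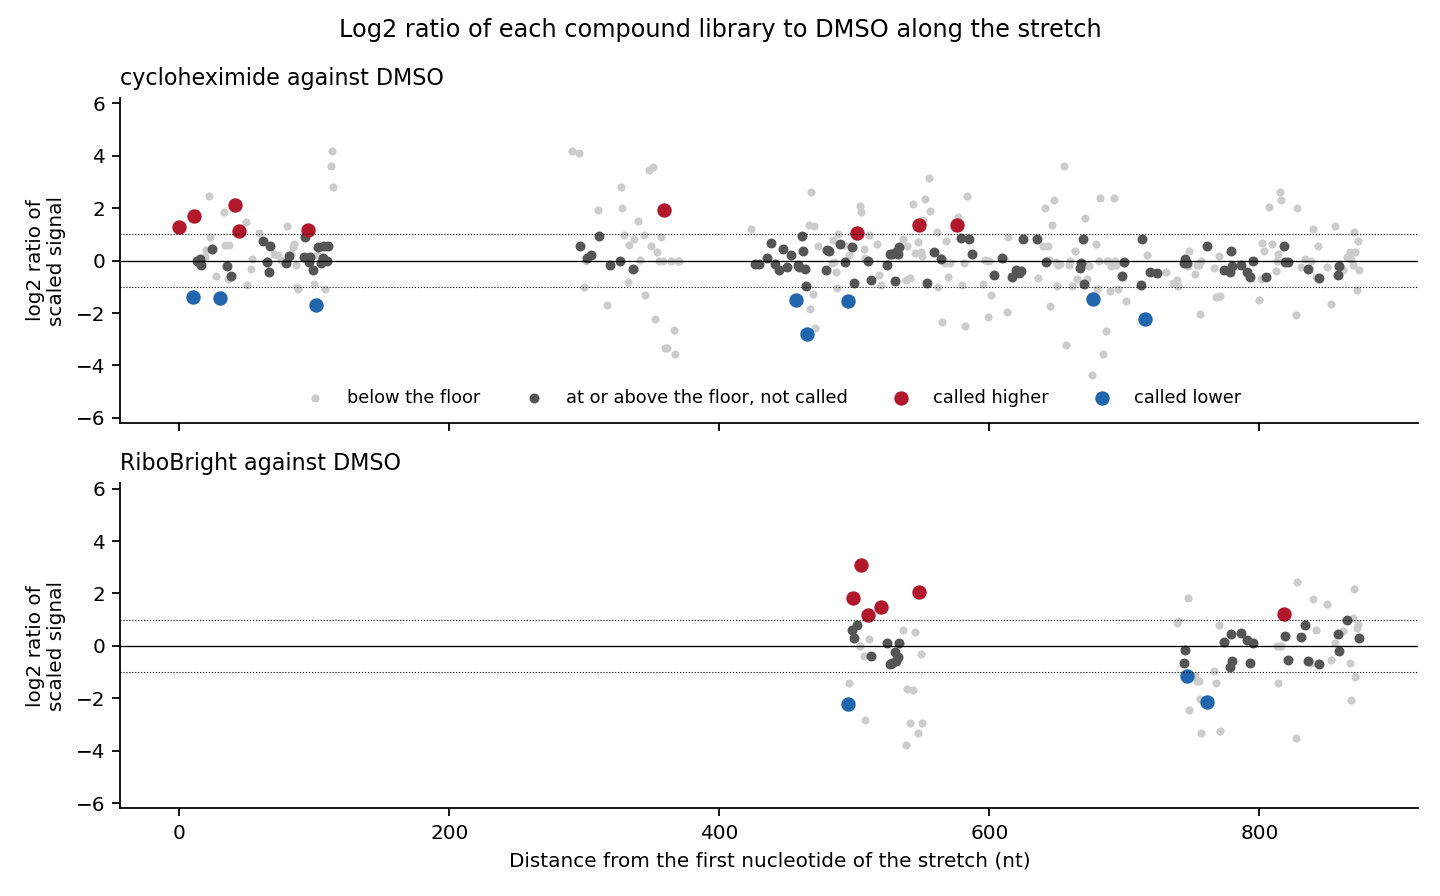
Log2 ratio of scaled signal, cycloheximide over DMSO (top) and RiboBright over DMSO (bottom), against the distance in nt from the first nucleotide of the stretch. Pale points are below the floor, dark points at or above it, and red and blue points called higher and lower, with dotted lines at 2-fold. The 17 calls of cycloheximide spread over most of the stretch, and the 9 of RiboBright lie only where that library has values.

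RiboBright and DMSO could be compared at 88 positions. The median log2 ratio was -0.17, and without positions at exactly 0 it was 0.21, so the sign turned with the zeros. Of the 40 past the floor 9 were called (22.5%), 6 higher and 3 lower, where 5.22% of 498 were called over 28S, 2.61% higher and 2.61% lower. The rest had 17 of 458 (3.71%), and its part of like local composition 7 of 84 (8.33%). The spread past the floor was 1.02 in the stretch and 0.350 in the rest. Scaling by the median of the stretch gave 15 calls, 2 higher and 13 lower. Every call lay within 10 nt of a position unlisted or at 0 in either library, as did 38 of the 40 past the floor. Where each A and C within 10 nt was listed in both libraries, 2 of 19 were called.

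Higher in RiboBright were C941, at 0.284 in RiboBright and 0.021 in DMSO (log2 ratio 3.10), C984 at 0.562 and 0.116 (2.05), A935 at 0.351 and 0.084 (1.81), A956 at 0.38 and 0.116, A1254 at 0.838 and 0.322 (1.22) and C946 at 0.652 and 0.258 (1.17). Lower were C931, at 0.077 and 0.367 (-2.23), C1197 at 0.073 and 0.333 (-2.16) and C1182 at 0.36 and 0.737 (-1.14). Of the 9, 6 fell between C931 and C984. C1182 is the third of 3 cytidines predicted unpaired. In the order DMSO, cycloheximide, RiboBright, its neighbour C1181 had 0.718, 0.795 and 0.715, and C1180 had 0.317, 0.316 and 0.216. The call just inside the threshold was C1182 and the position just outside it C1301, at 0.97.

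Between RiboBright and cycloheximide 8 of 38 positions past the floor were called (21.1%), 6 higher and 2 lower, where 5.76% of 486 were called over 28S, 3.91% higher and 1.85% lower. The rest had 20 of 448 (4.46%), and its part of like local composition 6 of 82 (7.32%), 1 higher and 5 lower. The median log2 ratio was -0.20, and 0.14 without positions at exactly 0. A956 had 0.38 in RiboBright and 0.059 in cycloheximide (log2 ratio 2.43), C936 had 0.953 and 0.414 (1.13) and A1294 had 0.756 and 0.353 (1.02, just inside the threshold). A935, C941 and C946 were higher here as against DMSO, and C1182 and C1197 lower. C1197 had 0.073 and 0.523 (-2.71). C962 was just outside, at -0.94. Scaling by the median of the stretch gave 2 higher and 6 lower, and under a pseudocount of 50% of the DMSO median 5 were called.

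The compounds can be set side by side at few of these positions. Of the 17 positions called between cycloheximide and DMSO, 3 were listed in RiboBright. C931 had 0.367, 0.125 and 0.077 in DMSO, cycloheximide and RiboBright. C984 had 0.116, 0.335 and 0.562, and C938 had 0.147, 0.336 and 0.289. Both comparisons share the DMSO library, so a deviation of that library would move them together. The other 14 calls have no RiboBright value.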

How the data were processed

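Per the labels' protocols, TRIzol was used for extraction, TGIRT-III with random hexamers for cDNA and NEBNext Ultra II for libraries. The values the authors deposited are a mutation signal per A or C of 28S rRNA, with 1 library per treatment. The submitters' processing notes name cutadapt, Bowtie2 and hg38, with no version. How mutations were counted and normalized, with which coverage minimum and background subtraction, is not given in the sources used here. Nor is the depth, so no counting interval is given.

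Unlisted positions were treated as not measured and zeros as values. Scaling, floor and call rule were applied to all of 28S with pandas 2.3.3 in Python 3.11.15 and tested on simulated data. The planted changes were larger than the call threshold and lay at positions well above the floor. That test therefore gives no rate of false calls for the stretch. Folding used ViennaRNA 2.7.2 at 37 °C. Named are the 10 highest DMSO signals, every called position, positions at both ends, unlisted runs, extreme windows and A and C in G-run regions. Any others were picked with their values in view. The members and lists were chosen with earlier results of these data known. Alternatives covered scaling, pseudocount, floor, fold, missing values and folding.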

Additional observations from a re-analysis of the deposited data

How the results depend on the processing

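Of 116 alternative values, 78 stayed within the size limits set, 35 moved past them and 3 changed sign. The limits were a factor of 1.5 for counts, signals and differences and 0.1 for log2 ratios, and for listed shares the 95% binomial interval over positions. These limits describe size and say nothing about replicate error. The call counts that follow are for the stretch alone. The share called over the whole rRNA is given for the main rule only. At the other settings the counts therefore cannot show whether the stretch differs from the rest. For cycloheximide against DMSO (17 of 123 called), 55 of 220 were called with the floor at the DMSO median, 0 of 43 at its 90th percentile, 41 of 123 at 1.5-fold, 6 of 123 at 3-fold and 3 of 33 over positions listed in all libraries. For RiboBright against DMSO (9 of 40), the first 4 of these gave 18 of 60, 2 of 16, 21 of 40 and 5 of 40. Scaling within the stretch gave 15 of 33, and complete listing within 10 nt 2 of 19. For RiboBright against cycloheximide (8 of 38), the same 4 gave 21 of 64, 3 of 15, 20 of 38 and 2 of 38, complete listing 3 of 18 and a pseudocount of 50% of the DMSO median 5 of 38. Scaled within the stretch, the median log2 ratios were -0.17 for cycloheximide against DMSO, -0.66 for RiboBright against DMSO and -0.46 for RiboBright against cycloheximide. Without scaling RiboBright against DMSO had -0.04, and with complete listing RiboBright against cycloheximide had -0.03. Without exact zeros, those of RiboBright were 0.21 against DMSO and 0.14 against cycloheximide. With unlisted positions at 0, the median of C was 0.0580 in DMSO and 0 in RiboBright, and that of A in RiboBright was 0. Counting only values above 0, the listed shares were 68.0%, 76.8% and 15.4%.

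The differences between predicted unpaired and paired moved to 0.0765 for A in cycloheximide and -0.0110 for A in RiboBright with pairs at most 200 nt apart. At a probability of 0.9 they were 0.143 for A in RiboBright, 0.494 for C in cycloheximide and 0.372 for C in RiboBright. With 100 nt added on each side, C in cycloheximide had 0.473. The G-run motif covered 201 nt with longer spacers and 301 nt with runs of 2 G. Counts over fewer or more positions differ in part by construction, and other causes were not tested. No paired analysis was possible because each treatment has 1 library, and for the same reason no library could be left out. Depth is unknown, so calls near zeros, or in RiboBright also near unlisted positions, may rest on few reads.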
